A study of Mus musculus with 6 samples.

Results

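The genes described here encode the subunits of the proteasome, measured on 3 arrays of neurospheres from Ts1Cje mice and 3 arrays of neurospheres from their disomic littermates. Members were all genes whose platform symbol starts with Psma, Psmb, Psmc, Psmd or Psme followed by a number, taken from probe sets that name 1 gene only and without the immunoproteasome subunits Psmb8, Psmb9 and Psmb10. This gave 39 genes of the 18193 genes with such a probe set. Psmc3ip and Psme3ip1 carry further letters after the number, are not subunits and were left out. The members fell into 16 genes of the core particle, 17 of the regulatory particle, 3 assembly chaperones of the regulatory particle and 3 activators. Psme2 had no value, since its probe set also names Psme2b.

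Ts1Cje mice carry an extra copy of the part of chromosome 16 beyond Sod1, attached to the distal end of chromosome 12, and the deposited labels name C57BL/6 as the control strain. All mice were females aged 84 days. Cells of the lateral ventricle walls were grown for 7 days as neurospheres, floating spheres in which neural stem cells and progenitors divide, and each genotype was measured in 3 separate cultures that the labels call biological replicates. A neurosphere is a mixture of cells, so that an altered RNA level in one cell type and an altered share of that cell type cannot be told apart. Of 8 stem cell and progenitor markers with a value, 7 were expressed, among them Nes, Sox2, Vim and Fabp7. Gfap had a mean log2 level of 4.87, just under the limit used, but was uneven. It ran from 2.37 on Ts1Cje replicate 1 to 6.36 on Ts1Cje replicate 3. The 3 oligodendrocyte markers with a value were expressed as well, and none of the 4 neuronal, 5 microglial and 3 endothelial markers was.

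The proteasome degrades proteins that carry chains of ubiquitin. Its core particle is a barrel of 4 stacked rings. The 2 outer rings are made of alpha subunits, which form the gate, and the 2 inner rings of beta subunits, of which Psmb5, Psmb6 and Psmb7 hold the active sites. The regulatory particle binds the ubiquitin chain, removes it and unfolds the protein with a ring of 6 ATPases. Dividing cells depend on the proteasome for the removal of cyclins and other short-lived regulators, and the transcription factor Nfe2l1 raises the transcription of subunit genes together when proteasome activity falls short.

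Promoter sequences are shown for a few members because subunit genes are known to share a control. Nfe2l1 binds antioxidant response elements, whose core was searched as TGACNNNGC, and NF-Y, with the subunits Nfya, Nfyb and Nfyc, binds the CCAAT box. The windows run from 250 bases before to 50 bases after an annotated start (RefSeq, GRCm38.p6, 5′ to 3′ on the strand of the gene). Of the 39 members, 32 had a window, and Psma6 and Psmc2 had more than 1. A start need not be the outer end of the gene, and that of Psmb6 lies inside its gene, which begins at 70525324. The active site genes Psmb5 and Psmb6 and the activator Psme4 each had 1 match to TGACNNNGC on either strand, given in capitals. The matches began at position -47, -9 and -7 from the start. Psmb3, the member with the highest M, had no such match but held CCAAT at positions -85 and -43, given in capitals.
Psmb5, chr14:54617946-54618245, minus strand: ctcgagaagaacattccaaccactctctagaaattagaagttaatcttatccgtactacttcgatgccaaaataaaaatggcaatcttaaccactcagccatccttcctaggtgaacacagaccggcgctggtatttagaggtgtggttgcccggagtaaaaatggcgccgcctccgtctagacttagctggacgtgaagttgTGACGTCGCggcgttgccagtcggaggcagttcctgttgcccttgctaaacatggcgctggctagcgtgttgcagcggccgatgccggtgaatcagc
Psmb6, chr11:70525107-70525406, plus strand: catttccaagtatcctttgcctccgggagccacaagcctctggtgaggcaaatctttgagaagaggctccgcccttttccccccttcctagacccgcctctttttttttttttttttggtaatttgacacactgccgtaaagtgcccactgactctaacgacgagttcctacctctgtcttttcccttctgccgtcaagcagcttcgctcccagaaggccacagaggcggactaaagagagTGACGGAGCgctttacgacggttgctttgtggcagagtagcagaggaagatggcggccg
Psme4, chr11:30771525-30771824, plus strand: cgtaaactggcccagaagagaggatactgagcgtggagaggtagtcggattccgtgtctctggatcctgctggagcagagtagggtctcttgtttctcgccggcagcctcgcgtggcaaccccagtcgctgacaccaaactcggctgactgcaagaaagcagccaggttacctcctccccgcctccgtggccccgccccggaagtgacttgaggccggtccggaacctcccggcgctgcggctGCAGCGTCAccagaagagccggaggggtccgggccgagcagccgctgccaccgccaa
Psmb3, chr11:97703184-97703483, plus strand: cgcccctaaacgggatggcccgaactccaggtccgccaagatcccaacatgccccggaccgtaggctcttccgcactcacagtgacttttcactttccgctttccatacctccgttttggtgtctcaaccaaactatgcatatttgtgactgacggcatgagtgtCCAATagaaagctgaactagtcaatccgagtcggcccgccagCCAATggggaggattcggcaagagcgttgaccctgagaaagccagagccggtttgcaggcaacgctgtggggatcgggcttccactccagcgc

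The core TGACNNNGC was found on either strand in the windows of 6 of the 32 members (18.8%), Psmb5, Psmb6, Psmc6, Psmd9, Psmd12 and Psme4, and in those of 14.0% of the 27025 genes with a window. CCAAT was found in 13 members (40.6%) and in 41.1% of all genes. The GC box GGGCGG was found in 20 members (62.5%) against 38.2% of all genes, and CCGGAAG, the form bound by ETS factors, in 12 members (37.5%) against 9.93%. None of these motifs contains another. In all, 14 motifs were searched, and these 4 were picked after their shares had been seen. The other 10 were TGACNNNGC followed by A, the same with A on both ends, the wider form TGANNNNGC, the related form TGAGNNNGC, the E box CACGTG, the CRE TGACGTCA, the TATA box TATAAA, the longer CCAAT box ATTGGC on its other strand, GCCATTTT and the related form GCCATNTTG. The first 3 overlap the core and ATTGGC overlaps the CCAAT box. The share in the members minus the share in all genes lay between -6.29 and 17.7 percentage points for these 10. It was highest for ATTGGC, found in 34.4% of members against 16.7% of all genes, and next for TGAGNNNGC, in 34.4% against 19.8%. It was below 0 for the core with A on both ends, TGACGTCA and TATAAA. The shares for the CCAAT box and for the antioxidant response element thus depended on the form searched. The windows were not matched for base composition, and a match is a run of letters and not a bound site.

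Nearly all proteasome subunit genes were expressed in the neurospheres, and none of them passed an adjusted p of 0.05 for a difference between the genotypes. M stands for the log2 change of a gene, taken as its Ts1Cje mean less its disomic mean, and A for its average log2 level on all 6 arrays. Genes with A above 5 were taken as expressed. Each gene is given by its brightest probe set. On this basis 37 of the 39 members were expressed, with A from 6.75 to 13.66 and a median of 11.05, against 8.47 for all 8947 expressed genes. These are intensities of different probes and do not rank RNA amounts. The 2 that were not expressed are restricted to other tissues. Psma8, an alpha subunit of the testis, read 2.23 to 2.33 on the 6 arrays, and Psmb11, the beta subunit of the thymus, read 2.23 on every array, which is the lowest value in the data.

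The 37 expressed members had a median M of -0.02, with quartiles of -0.10 and 0.05, beside a median of 0.02 over all expressed genes. M was below 0 in 23 members (62.2%), against 46.1% of all expressed genes, and above 0 in 14. The median distance of M from 0 was 0.08 for the members and 0.14 for all expressed genes. M ranged from -0.40 for Psmd10 to 0.35 for Psmb3. No member passed an adjusted p of 0.05 in limma, where 0.00222% of all probe sets did (1 of 45037), and the adjusted p of every member was 1. At an unadjusted p under 0.05 the count was 1 member, Psmb7, against 6.61% of expressed genes.

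A moderated t above 4 or below -4 was reached by 0 members, where 1.13% of expressed genes lay above 4 and 0.693% below -4. The count depended on the model and on the arrays used. With the replicate number as a block, Psmb4 passed with t = -4.64, and the share of all expressed genes is not given for that fit. Without Ts1Cje replicate 1, Psmb7 passed with t = -6.09 and the alpha subunit Psma6 with t = 5.04. Without that array, 2.32% of expressed genes lay above 4 and 2.7% below -4. The probe sets of Psma6 did not share a sign. With every array in the fit, M was 0.06 on its brightest probe set, -0.12 on the next brightest and 0.01 on another. The Ts1Cje arrays all lay above the disomic arrays in 1 member, Psma2, where 6.12% of expressed genes did so, and all below them in 2, Psmb4 and Psmb7, where 5.16% did. The groups overlapped in the other 34 members. With 3 arrays a side, the smallest p that an exact permutation test of a gene can reach is 0.1.

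How large a change these arrays allow was read from the 95% interval of M, a description added after the values were seen. The interval lay wholly within a change of 1.5-fold either way, a log2 of 0.58, in 27 of the 37 members (47.5% of all expressed genes). An extra gene copy would give 1.5-fold if RNA followed copy number. Among genes with A above 10, the interval lay within these bounds in 19 of 24 members and in 63% of all genes. The 10 members whose interval reached past 1.5-fold were Psma7, Psmb1, Psmb2, Psmb3, Psmc4, Psmc6, Psmd2, Psmd10, Psmd13 and Psme3. For these genes the interval did not exclude a change of that size.

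**Figure D1:**
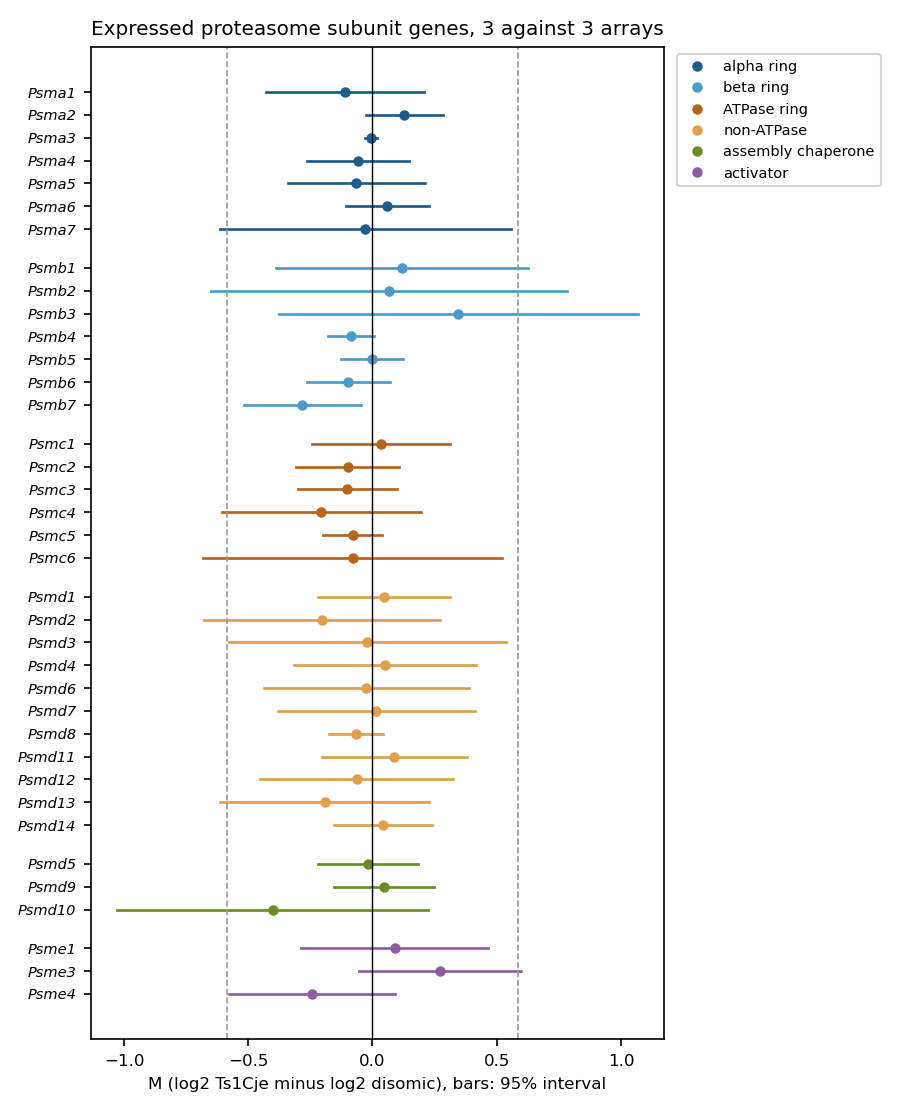
M of the 37 expressed proteasome subunit genes (points, log2 Ts1Cje minus log2 disomic) with the 95% interval (bars), grouped by their place in the proteasome. The dashed lines mark 1.5-fold in either direction, and the interval of Psmb7 alone leaves out 0.

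In the alpha ring, M ran from -0.11 for Psma1 to 0.13 for Psma2. Its 7 expressed genes had a median M of -0.03, with 5 below and 2 above 0. Psma3 read 13.35, 13.32 and 13.33 on disomic arrays 1 to 3 and 13.32, 13.33 and 13.33 on Ts1Cje arrays 1 to 3. All 6 values lay within a few hundredths, and M was -0.01 (standard error 0.01). Psma2 read 11.91, 12.07 and 12.00 on the disomic arrays and 12.09, 12.08 and 12.20 on the Ts1Cje arrays. The lowest Ts1Cje array stood only just above the highest disomic array. M was 0.13 with a standard error of 0.06, an interval from -0.03 to 0.28 and t = 2.23, which does not pass either limit. The remaining 5 genes of the ring, Psma1, Psma4, Psma5, Psma6 and Psma7, had M of -0.11, -0.06, -0.07, 0.06 and -0.03. Their standard errors were 0.12, 0.08, 0.10, 0.06 and 0.22, and the interval of Psma7 ran from -0.61 to 0.56.

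In the beta ring the 7 expressed genes had a median M of -0.00, with 4 below and 3 above 0. Psmb5, the subunit with chymotrypsin-like activity and the main target of proteasome inhibitors, read 12.79, 12.67 and 12.75 on the disomic arrays. On the Ts1Cje arrays it read 12.67, 12.78 and 12.75, so that the groups coincided. M was -0.00 with a standard error of 0.05 and an interval from -0.13 to 0.12. Psmb6, the caspase-like subunit, read 11.38, 11.22 and 11.34 in the disomic and 11.14, 11.22 and 11.29 in the Ts1Cje neurospheres. Here the disomic arrays reached higher, but the groups overlapped, with M of -0.10 (standard error 0.06) and an interval from -0.26 to 0.07.

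Psmb7, the trypsin-like subunit (chr2:38588046-38643952), stood furthest from 0 relative to its error. It read 12.45, 12.51 and 12.35 on the disomic arrays and 12.31, 12.05 and 12.10 on the Ts1Cje arrays. Each Ts1Cje array was below each disomic array, and Ts1Cje replicate 1 was the closest to the disomic values. M was -0.28 with a standard error of 0.09 and an interval from -0.52 to -0.05, a fold of 0.822. The moderated t was -3.24 (limma, unadjusted p = 0.0282, adjusted p = 1), so the difference did not pass the adjustment over all probe sets. Psmb7 is measured by a single probe set, and no other reading of it was at hand. The 3 active site genes thus differed in how their arrays were placed, from coinciding groups to separate ones, and differences between the 3 genes were not tested.

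Psmb4, a beta subunit without an active site, read 13.65, 13.76 and 13.70 on the disomic arrays and 13.58, 13.63 and 13.64 on the Ts1Cje arrays. Its groups did not overlap, although the gap between the nearest arrays was small. M was -0.09 with a standard error of 0.03 and t = -2.49. Its other expressed probe set had M of -0.07 with a standard error of 0.12, and there the groups overlapped. Psmb3, likewise without an active site, read 12.50, 11.93 and 12.50 on the disomic arrays and 12.25, 12.81 and 12.91 on the Ts1Cje arrays. A low array in each genotype spread both groups across each other. M was 0.35 with a standard error of 0.27 and an interval from -0.38 to 1.07, and the other probe set had M of 0.28.

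Psmb2 was used in the study as a reference gene for RT-qPCR, as was Pgk1. It read 9.67, 9.10 and 9.49 on the disomic arrays and 9.06, 9.59 and 9.81 on the Ts1Cje arrays. The highest and the lowest value were both Ts1Cje arrays. M was 0.07 with a standard error of 0.27 and an interval from -0.65 to 0.78. The SD within the genotypes was 0.339, second only to Psmb3 among the 37 members, and 17.1% of all expressed genes had a larger one. Pgk1, a glycolytic enzyme, had M of 0.06 with a standard error of 0.09 and an interval from -0.18 to 0.30. The RT-qPCR used RNA from other cultures, so these values describe the array samples only.

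**Figure D2:**
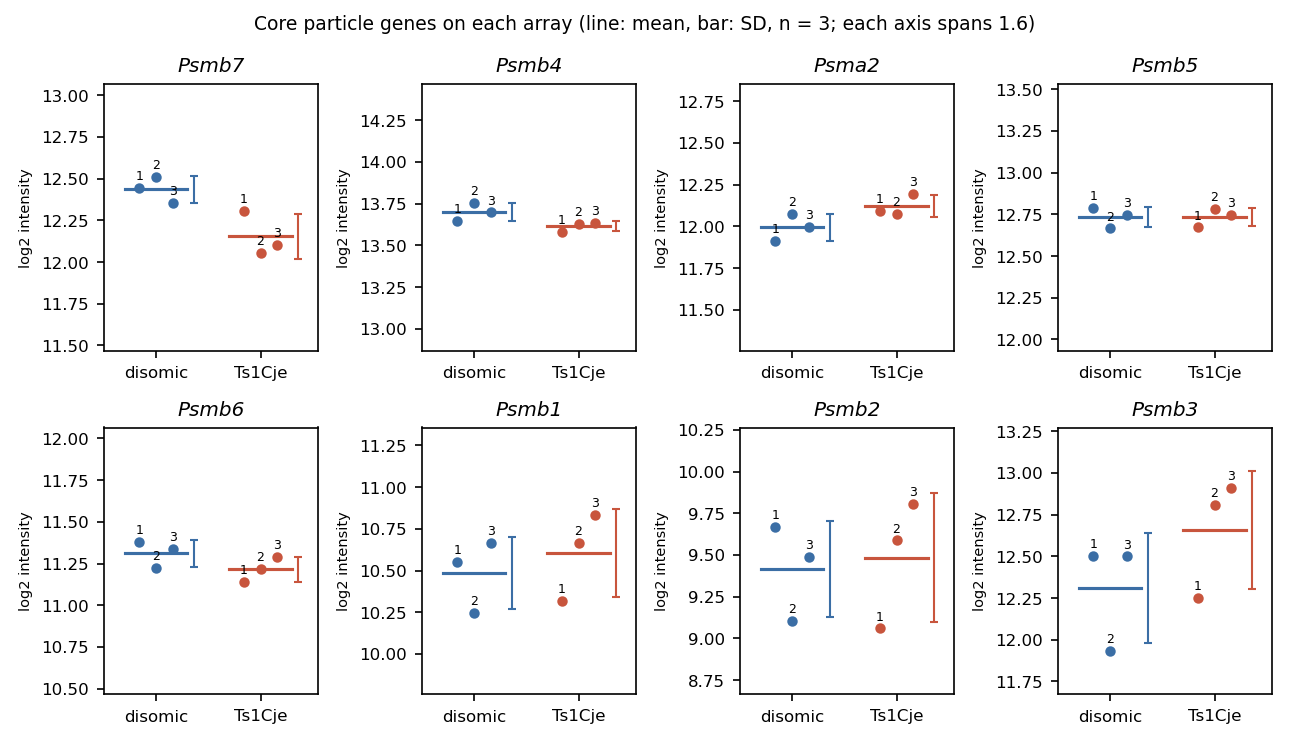
Log2 intensity of 8 core particle genes on each array, with replicate numbers beside the points, the mean (line) and the SD (bar, n = 3). All panels span 1.6 log2 units, the 2 genotypes stand apart in Psmb7 and Psmb4 (Ts1Cje lower) and Psma2 (Ts1Cje higher), and they overlap in the other 5 genes.

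The 17 genes of the regulatory particle, all expressed, had a median M of -0.06, with 11 below and 6 above 0. On the brightest probe set the groups overlapped in every one. On the other expressed probe set of Psmc2, with M of -0.15, all Ts1Cje arrays lay below the disomic arrays. Averaged over the 17 genes, the Ts1Cje arrays differed from the disomic arrays by -0.0507 with a pooled SD of 0.0345, and the arrays of the genotypes overlapped. M ranged from -0.21 for Psmc4 to 0.09 for Psmd11. In the ring of ATPases, 5 of 6 genes had M below 0, the median was -0.09, and the mean differed by -0.0887 with a pooled SD of 0.0747, again with overlap. Psmc4 read 10.94, 11.24 and 11.23 on the disomic arrays and 11.07, 10.69 and 11.04 on the Ts1Cje arrays, with Ts1Cje replicate 2 the lowest and the first disomic array among the Ts1Cje values. Its M was -0.21 with a standard error of 0.15. Psmc5 was the most even of the ATPases, at 11.11, 11.13 and 11.14 in the disomic and 11.12, 11.06 and 10.97 in the Ts1Cje neurospheres. M was -0.08 with a standard error of 0.04.

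The 11 subunits that are not ATPases had a median M of -0.02, with 6 below and 5 above 0. Psmd14, the enzyme that cuts ubiquitin chains from the substrate, read 11.96, 11.87 and 11.87 on the disomic arrays and 11.82, 11.96 and 12.06 on the Ts1Cje arrays. The groups crossed, with M of 0.04 (standard error 0.07). Psmd4, a receptor for ubiquitin chains, had M of 0.05 with a standard error of 0.14. Psmd2, the scaffold on which shuttle receptors dock, lies on chromosome 16 at chr16:20651122-20663414. This is outside the trisomic segment, which starts beyond Sod1 at position 90226333. Psmd2 read 12.52, 12.09 and 12.01 on the disomic arrays and 11.94, 12.18 and 11.89 on the Ts1Cje arrays. Only the first disomic array stood clearly above the others, and M was -0.20 with a standard error of 0.18.

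The comparison of the core with the regulatory particle showed no separation of the genotypes. The median M of the core was -0.02 and that of the regulatory particle -0.06. Averaged over the members on each array, relative to each gene's own mean, the core minus the regulatory particle was -0.02, -0.03 and -0.02 on the disomic arrays. On the Ts1Cje arrays it was -0.10, 0.04 and 0.14. The Ts1Cje arrays lay on both sides of the disomic ones, and the difference of the means, 0.05, was smaller than the pooled SD of 0.09 (n = 3 per genotype). The mean over the ATPases was 0.02, 0.07 and 0.04 on the disomic and 0.07, -0.11 and -0.10 on the Ts1Cje arrays. Ts1Cje replicates 2 and 3 were thus low for the ATPases while replicate 1 was as high as the highest disomic array. The mean over all 37 members was 0.04, -0.02 and 0.02 on the disomic arrays and -0.05, -0.02 and 0.02 on the Ts1Cje arrays.

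**Figure D3:**
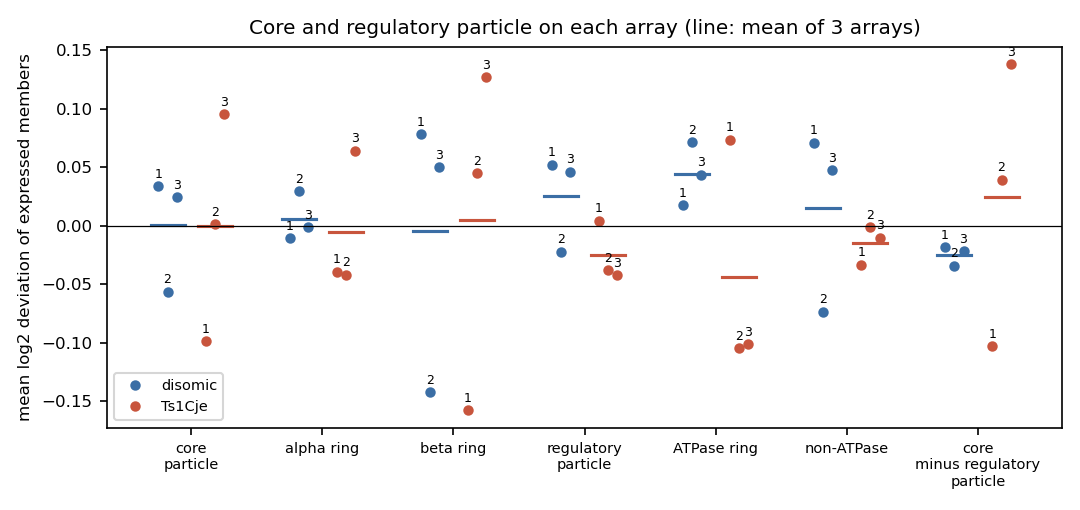
Deviation from the gene's own mean (log2), averaged over the expressed genes of a ring or particle, on each array (points with replicate numbers, line for the mean of 3 arrays). The genotypes overlap in every group of genes, and core minus regulatory particle runs from -0.10 to 0.14 on the Ts1Cje arrays against -0.03 to -0.02 on the disomic arrays.

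The 3 chaperones that help to build the regulatory particle had overlapping groups and a median M of -0.02, with 2 below and 1 above 0. Psmd10, also known as gankyrin, read 8.23, 8.66 and 7.85 on the disomic arrays and 7.94, 7.87 and 7.73 on the Ts1Cje arrays. The first 2 disomic arrays were the highest, and the third lay among the Ts1Cje arrays. M was -0.40 with a standard error of 0.23 and an interval from -1.03 to 0.23. Psmd5 and Psmd9 had M of -0.02 and 0.05, each with a standard error of 0.07.

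Activators replace the regulatory particle at the ends of the barrel. Psme1, a subunit of the PA28 activator, read 8.33, 8.32 and 8.17 in the disomic and 8.11, 8.41 and 8.57 in the Ts1Cje neurospheres. Its M was 0.09 with a standard error of 0.14, and its groups overlapped. Psme3, which forms the nuclear activator PA28 gamma, read 8.88, 8.64 and 8.58 on the disomic arrays and 8.83, 8.95 and 9.13 on the Ts1Cje arrays. Ts1Cje replicate 1 fell just below the first disomic array, and M was 0.27 with a standard error of 0.12. On the other expressed probe set of Psme3, M was 0.34 and all Ts1Cje arrays lay above the disomic arrays. The nearest arrays there were close, at 7.376 on Ts1Cje replicate 1 and 7.372 on disomic replicate 1. Psme4, the PA200 activator, read 9.65, 9.78 and 10.06 on the disomic arrays and 9.67, 9.57 and 9.52 on the Ts1Cje arrays. On this probe set of Psme4 the groups overlapped by 1 array, with M of -0.24 (standard error 0.12). The 4 expressed probe sets of Psme4 ranged from -0.47 to -0.12.

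Several members were read by more than 1 expressed probe set, 16 genes in all. The M of these probe sets had 1 sign in 12 genes and both signs in 3, Psma5, Psma6 and Psmd4. In Psmd7 a probe set had M of 0, since it read the same value, 5.75, on every array. The range of M between the probe sets of a gene had a median of 0.07, and the largest was 0.35 in Psme4. Agreement between probe sets does not count as replication, since they read the same RNA.

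The spread between arrays of the same genotype set what could be seen. The SD within the genotypes had a median of 0.138 over the members and 0.209 over all expressed genes, and among genes with A above 10, a subset chosen after the values were seen, it was 0.128 and 0.170. It ran from 0.0115 for Psma3 to 0.342 for Psmb3. Psmb1, a further beta subunit without an active site, read 10.55, 10.25 and 10.66 on the disomic arrays and 10.32, 10.67 and 10.83 on the Ts1Cje arrays. In Psmb1, Psmb2 and Psmb3 alike, the lowest value of each genotype came from disomic replicate 2 and Ts1Cje replicate 1.

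Looking for this placement after it had been seen in these genes, disomic replicate 2 and Ts1Cje replicate 1 were the 2 lowest arrays in 12 of 37 members (32.4%) and in 970 of 8947 expressed genes (10.8%). The 12 were Psma3, Psma6, Psmb1, Psmb2, Psmb3, Psmb5, Psmc1, Psmd1, Psmd3, Psmd4, Psmd9 and Psmd11. The same arrays were the 2 highest in Psma1 and Psmc6 (5.41%) and in 12.8% of expressed genes. Averaged over the beta ring, these arrays stood at -0.14 and -0.16 where the other 4 arrays stood between 0.04 and 0.13. That average includes Psmb1, Psmb2 and Psmb3, in which the placement was first seen. Psmb4 and Psmb7 went the other way for disomic replicate 2, which was their highest array. The low placement of disomic replicate 2 and Ts1Cje replicate 1 cuts across the genotypes.

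**Figure D4:**
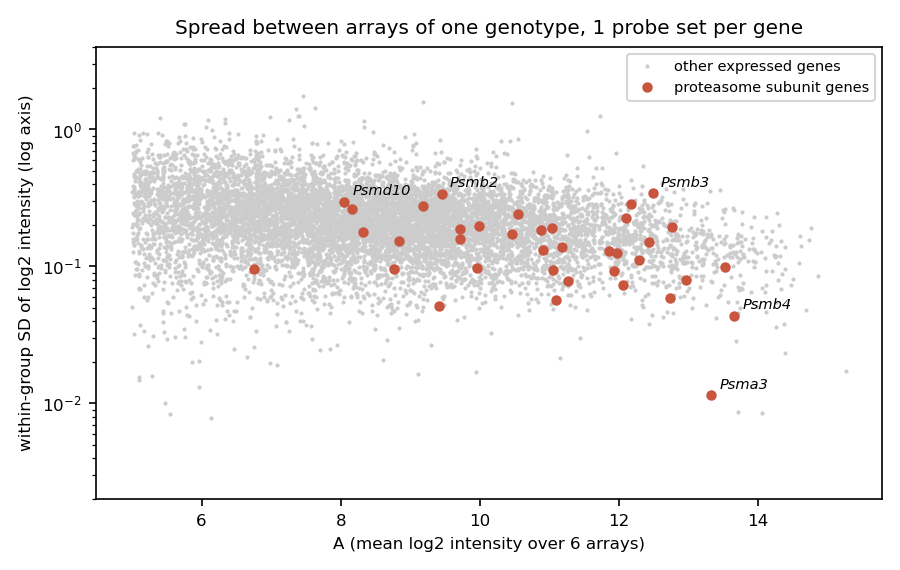
SD of log2 intensity within the genotypes (log axis) against A for the brightest probe set of each expressed gene, with the 37 proteasome subunit genes in red. The members run from 0.0115 (Psma3) to 0.342 (Psmb3), and 2 expressed genes with an SD under 0.002 are off the axis.

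Other genes of the pathway, in 5 lists of assembly factors, associated proteins, shuttle receptors, factors of control and extraction, and ubiquitin supply, numbered 41. Of these, 32 had a probe set of their own and 31 were expressed. Their median M was -0.09, with 18 below and 13 above 0, where 46.1% of all expressed genes lay below 0. A single one, Psmg1, had a moderated t above 4 (1.13% of all expressed genes), and none had one below -4 (0.693%). None passed the adjusted p, while 2 had an unadjusted p under 0.05 (6.61% of all expressed genes). The Ts1Cje arrays were all higher in 1 gene, Psmg1 (6.12% of all expressed genes), and all lower in 2, Nbr1 and Rad23b (5.16%). No ubiquitin gene had a probe set of its own, and the list of ubiquitin supply held only Uba6.

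Psmg1, a chaperone that pairs with Psmg2 to assemble the alpha ring, was the clearest difference in the pathway. It lies within the trisomic segment (chr16:95979933-95990960). Its values were 8.87, 8.59 and 8.60 on the disomic arrays and 9.52, 9.37 and 9.56 on the Ts1Cje arrays. The gap between the groups was larger than the range within either. M was 0.79 with a standard error of 0.11 and an interval from 0.51 to 1.08, a fold of 1.73, with t = 7.52 (limma, unadjusted p = 0.00121, adjusted p = 1). The 7 expressed alpha subunits, which the pair assembles, had M between -0.11 and 0.13.

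Psmg2, which has the normal number of copies, read 9.83, 10.49 and 9.57 on the disomic arrays and 10.06, 9.50 and 9.19 on the Ts1Cje arrays. The groups overlapped widely, with M of -0.38 (standard error 0.36). Psmg1 minus Psmg2 on each array was -0.96, -1.90 and -0.97 for disomic and -0.54, -0.13 and 0.37 for Ts1Cje. These groups did not overlap, and their means differed by 1.18 (two-sided exact permutation test, p = 0.1, the smallest that 3 against 3 arrays can give), in a test picked after the values had been seen. As the 2 genes are read by different probes, the sign of the difference on an array says nothing of which RNA was more abundant. Psmg3, which pairs with Psmg4 and also serves the alpha ring, and Pomp, which acts as the beta subunits join, had M of -0.00 (standard error 0.18) and 0.07 (standard error 0.15), and Psmg4 was not expressed, with A of 3.71.

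**Figure D5:**
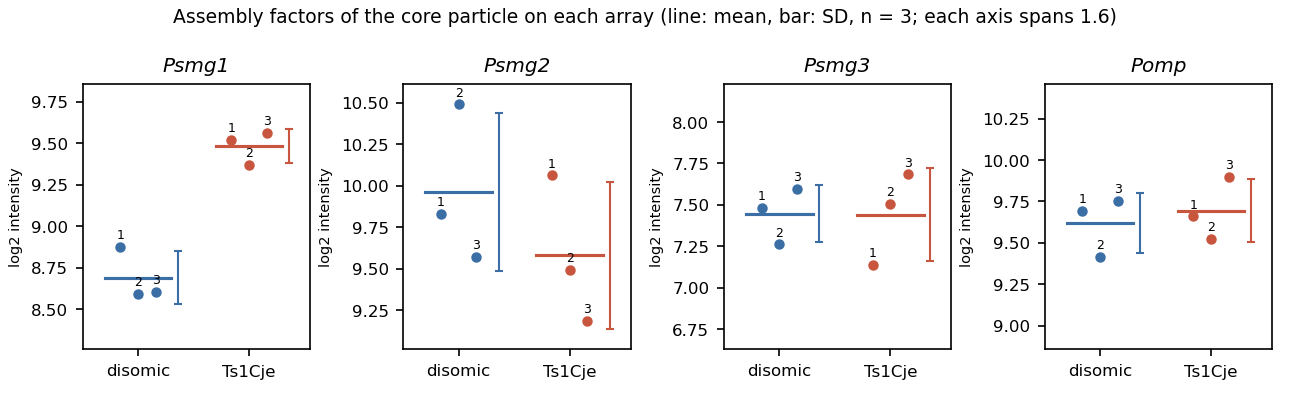
Log2 intensity of 4 assembly factors of the core particle on each array, with replicate numbers, the mean (line) and the SD (bar, n = 3), in panels that span 1.6 log2 units. Psmg1, the trisomic gene, is higher on every Ts1Cje array, with M of 0.79, and the groups overlap in Psmg2, Psmg3 and Pomp.

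Among the factors that control the subunit genes, Nfe2l1 read 8.70, 7.73 and 8.30 on the disomic arrays and 8.22, 8.67 and 8.66 on the Ts1Cje arrays. Its lowest arrays were disomic replicate 2 and Ts1Cje replicate 1, as in Psmb1, Psmb2, Psmb3 and Psmb5 but not in Psmb4, Psmb6 and Psmb7. The same placement was found in 10.8% of expressed genes, and a link between Nfe2l1 and the subunit genes was not tested. M of Nfe2l1 was 0.28 with a standard error of 0.30. Nfya, a subunit of NF-Y, read 7.14, 7.45 and 6.76 in the disomic and 6.80, 6.83 and 6.23 in the Ts1Cje neurospheres. The disomic arrays reached higher but overlapped the others, with M of -0.50 (standard error 0.27). Nploc4, a cofactor of the enzyme that extracts ubiquitinated proteins, read 8.55, 8.31 and 8.13 on the disomic arrays and 8.13, 8.08 and 7.93 on the Ts1Cje arrays. The groups met at their nearest arrays, and M was -0.28 (standard error 0.13). Nbr1, a receptor that carries ubiquitinated cargo to autophagy, read 12.67, 12.65 and 12.74 in the disomic and 12.61, 12.56 and 12.54 in the Ts1Cje neurospheres. The groups were separate at a small M of -0.12 (standard error 0.03), with t = -3.45, while its other probe set had M of -0.01. Uba6, an enzyme that activates ubiquitin, read 8.38, 9.04 and 8.94 on the disomic arrays and 8.50, 8.24 and 7.70 on the Ts1Cje arrays. The first disomic array lay among the Ts1Cje values, M was -0.64 with a standard error of 0.30, and 3 of the 4 other probe sets of Uba6 had M above 0.

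The immunoproteasome subunits replace Psmb5, Psmb6 and Psmb7 in cells exposed to interferon. Psmb8 and Psmb9 were not expressed, with A of 2.33 and 2.82. Psmb10, the counterpart of Psmb7, read 7.45, 7.04 and 7.21 on the disomic arrays and 7.46, 7.55 and 7.82 on the Ts1Cje arrays. The groups touched without overlapping, with M of 0.38 and a standard error of 0.16.

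Measures of the arrays moved with the genotype. The 3′ minus 5′ difference of the actin control probe sets was 1.67 ± 0.15 on the disomic and 2.02 ± 0.21 on the Ts1Cje arrays (SD, n = 3), and that of Gapdh was 2.18 ± 0.10 and 2.34 ± 0.09. The 18S ribosomal control read 11.10 ± 0.78 and 12.22 ± 0.22. In all 3 measures each Ts1Cje array was above each disomic array. Their part in the values of Psmb7, Psmb4 and Psma2 was not tested.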

How the data were processed

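RNA of 6 neurosphere cultures was labelled in a two-cycle protocol and hybridised to Affymetrix mouse arrays. The authors deposited log2 intensities made with gcRMA, which corrects for background by probe sequence, normalizes between arrays and summarises each probe set; its version is not given in the sources used here. These steps compress dim values to a common floor and cannot be repeated from the deposited values. All 6 columns were used. Of 45037 probe sets besides 64 controls, the platform annotation gives 34945 a single symbol, 932 several and 9160 none, and only the first were used for genes.

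Genotype was the only term of a linear model in limma 3.58.1 (R 4.3.3), fitted to every probe set but the controls, with an empirical Bayes moderated t with Benjamini-Hochberg adjustment over all of them. The prior degrees of freedom were 0.336, so each probe set was judged mostly by its own spread. Tests were two-sided, and the step was tested on simulated data. Arrays carry no read depth, and their number limits the precision. The lowest correlation between 2 arrays was 0.991.

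Members and lists were chosen with earlier results of these data known. Full values were given, by rule, for members with a moderated t past 4 or groups that do not overlap, the active site subunits, Psmb2, Psme1, Psma8, Psmb11, and from the pathway Psmg1, Psmg2, Pomp, Nfe2l1 and the 4 others with the largest moderated t. Psma3, Psmb1, Psmb3, the regulatory subunits, Psmd10, Psme3, Psme4, Psmb10 and Rad23b were named after their values had been seen. The count of members inside 1.5-fold was also added after the data were seen. Alternatives were a replicate block, leaving out each array, cyclic loess, array weights, a prior that follows intensity, other expression limits, other probe sets per gene, and the chaperones counted with the regulatory particle. Coordinates and promoters are those of RefSeq (GRCm38.p6), read in Python 3.11.15 (pandas 2.3.3). Plots came from matplotlib 3.10.9.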

Additional observations from a re-analysis of the deposited data

How the results depend on the processing

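No member passed the adjusted p of limma under any of 15 alternatives. The count past a moderated t of 4 was 0 in 13 of them. It was 1 with the replicate block (Psmb4, t = -4.64), a fit for which the share of all expressed genes is not given. On leaving out single arrays it was between 0 and 2, with 2 without Ts1Cje replicate 1. Without that array, 2.32% of expressed genes lay above 4 and 2.7% below -4. The cause of these differences in the count was not tested. The median M of the members stayed between -0.05 and -0.00, and core minus regulatory particle between 0.01 and 0.13 over 16 alternatives, with the same range on leaving out arrays. Between 20 and 29 members had the interval of M inside 1.5-fold, with 20 under the replicate block and 23 to 25 on leaving out arrays, which were alternatives added after the data were seen.

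The paper describes 3 pairs of littermates, but the labels do not say that arrays with the same number share a litter. Deviations of the arrays with the same number correlated at -0.17, -0.03 and 0.13. The highest value for any disomic and Ts1Cje array was 0.40, for disomic replicate 2 and Ts1Cje replicate 1. So few values cannot settle whether the numbers pair the cultures, and the block was used only as an alternative. Of 180 values of M for named genes, 154 kept their direction, 12 changed sign, and 14 had no direction, with M of 0 there or in the reported fit (Psmb11, Psma8, Psmg2 and Nfya). None of the 180 passed the adjusted p. On leaving out single arrays, M of Psmb5 ranged from -0.036 to 0.029, of Psmb2 from -0.095 to 0.28, of Psme1 from -0.014 to 0.22 and of Pomp from -0.029 to 0.16. Among genes that kept their sign, it ranged from 0.02 to 0.50 for Nfe2l1, -0.62 to -0.12 for Psmg2, -0.67 to -0.30 for Nfya, -0.38 to -0.17 for Nploc4, -0.84 to -0.41 for Uba6 and -0.14 to -0.06 for Psmb6. Psmb5 stood at 0.020 with array weights. Uba6 had M of 0.15, 0.091 and 0.030 on 3 of its 4 other probe sets.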
